A study of Danio rerio with 3 samples.

Results

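The 10 genes described here encode subunits of glutamate receptor channels: *gria1a*, *gria1b*, *gria2a*, *gria2b*, *gria3a*, *gria3b*, *gria4a* and *gria4b* for AMPA receptors, and *grin1a* and *grin1b* for the GluN1 subunit of NMDA receptors. They were taken by name from 30579 gene symbols in the count tables, which list these 10 symbols in 23 rows; the rows of a symbol that carry a number suffix were summed. The data are 3 single-cell 3′ RNA libraries of whole zebrafish retina, each from 1 pool of 3 fish aged 4 to 8 months and taken 2 to 4 h after light onset in a cycle of 14 h light and 10 h dark, as the sample labels state (the study's methods text gives other ranges for age and time that overlap these). WT V3 came from the AB strain and the 10X V3 chemistry, P23H V3 from the transgenic line uth4Tg with the same chemistry, and P23H V2 from uth4Tg with the older V2 chemistry. The line carries a rhodopsin transgene with the P23H change, a retinitis pigmentosa model in which the study describes rods as the cells that express the mutant protein and as undergoing ongoing loss and replacement. No group has a second library, so no test across animals was possible, and all intervals cover counting error only.

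AMPA receptors are tetramers of GluA1 to GluA4 (genes *gria1* to *gria4*), open within milliseconds of glutamate binding and carry most fast excitation. In mammals, edited GluA2 keeps calcium out of the channel, and receptors without it pass calcium. NMDA receptors need GluN1 together with GluN2 or GluN3 subunits, and those with GluN2 pass current mainly when glutamate binds while the membrane is depolarised. In the retina, horizontal cells and OFF bipolar cells read photoreceptor glutamate through AMPA and kainate receptors, ON bipolar cells read it through the metabotropic receptor mGluR6, and amacrine and ganglion cells carry AMPA and NMDA receptors at their inputs from bipolar cells. Teleosts kept a pair of copies of each of these genes, named a and b.

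Cells were clustered on both V3 libraries together with glutamate receptor genes left out of the variable genes, and clusters were named from marker genes, which gave 15 named types. 4 types carry the comparisons: bipolar cells (4098 WT V3 and 5779 P23H V3 cells), horizontal cells (475 and 504), amacrine cells (2048 and 3225) and retinal ganglion cells (437 and 620). Levels are UMIs of a gene per 1000000 UMIs of its cell type (CPM), and since 3′ capture differs between genes, levels are compared across cell types and libraries rather than between genes. The types carried their defining markers in both libraries: the horizontal cell connexin gene *cx52.6* stood at 1277 and 791 CPM in horizontal cells, the ganglion cell gene *rbpms2a* at 3918 and 4823 CPM in ganglion cells, the GABA synthesis gene *gad2* at 1922 and 2116 CPM in amacrine cells, and *vsx1* at 1279 and 2007 CPM in bipolar cells. A total of 64 cell barcodes were shared between WT V3 and P23H V3, 1 between WT V3 and P23H V2, and 0 between the P23H libraries. The libraries kept 13554, 15514 and 4671 cells (WT V3, P23H V3, P23H V2), with a median of 1220, 1245 and 457 UMIs.

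RNA free in the cell suspension gives cells UMIs of genes they do not express, and erythroid cells, which should lack all 10 genes, are given here for comparison. In erythroid cells *grin1a* stood at 42.4 CPM (95% interval 30.9 to 56.8, 45 UMIs) in WT V3 and at 179 CPM (95% interval 161 to 198, 356 UMIs) in P23H V3. The corresponding levels of *grin1b* were 29.2 and 90.0 CPM, and those of *gria3a* were 7.54 and 25.6 CPM. Rod opsin in the same cells went the other way, from 6884 to 1409 CPM. The P23H V3 erythroid level is not a floor for that library, since *grin1a* stood lower in its bipolar cells (103 CPM) and T lymphocytes (112 CPM).

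**Figure D1:**
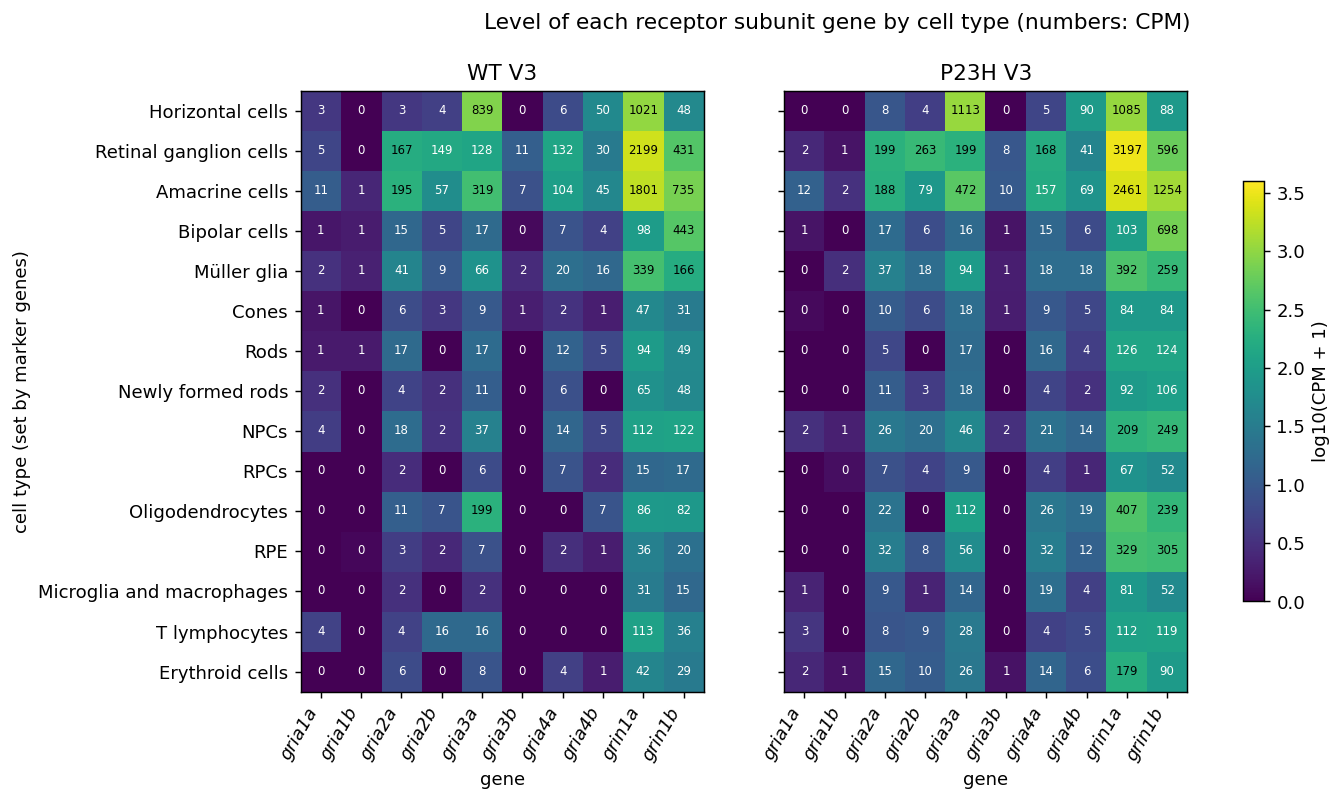
Level of each of the 10 genes (columns) in 15 cell types (rows) of the WT V3 library (left) and the P23H V3 library (right), with colour for log10(CPM + 1) and the CPM printed in each cell. In the first 4 rows the high values are *gria3a* and *grin1a* in horizontal cells, most genes in ganglion and amacrine cells, and *grin1b* in bipolar cells. Other rows hold high values as well, such as *gria3a* in oligodendrocytes and *grin1a* in Müller glia (339 and 392 CPM).

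In horizontal cells, which receive photoreceptor output and feed back onto it, 1 AMPA receptor gene supplied nearly all AMPA receptor UMIs. *gria3a* stood at 839 CPM (95% interval 785 to 896, 884 UMIs) in WT V3, at 1113 CPM (95% interval 1051 to 1177, 1205 UMIs) in P23H V3 and at 936 CPM (95% interval 772 to 1125, 114 UMIs) in P23H V2. Both *gria3* copies together made up 92.8% (95% interval 90.9 to 94.3%) of the AMPA receptor UMIs in WT V3 and 91.3% (95% interval 89.6 to 92.8%) in P23H V3. The *gria2* genes, which encode the subunit that limits calcium entry in mammals, had 7 of 953 AMPA receptor UMIs in WT V3 and 13 of 1320 in P23H V3, shares of 0.735% and 0.985%. At 2.85 and 8.31 CPM, *gria2a* in horizontal cells lay at or below its level in erythroid cells (5.66 and 15.08 CPM), so it was not above the level of a type that should lack it. The remaining AMPA receptor UMIs were mostly *gria4b*, at 50.3 CPM (95% interval 37.7 to 65.8, 53 UMIs) in WT V3 and 89.6 CPM (95% interval 72.6 to 109, 97 UMIs) in P23H V3, against 0.943 and 6.03 CPM in erythroid cells. Neither *gria3b* nor *gria1b* had a UMI in horizontal cells of any library, which allows up to 2.85 CPM in WT V3 and 2.77 CPM in P23H V3.

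After thinning every horizontal cell to 500 UMIs, *gria3a* was seen in 36.2% of WT V3 and 48.2% of P23H V3 cells, against 0.269% and 1.13% of erythroid cells. Without thinning these shares of horizontal cells were 77.5% and 83.7%, at median depths of 2028 and 1836 UMIs per horizontal cell and 1208 and 929 UMIs per erythroid cell. No cell of these types fell under 500 UMIs. Horizontal cells also held *grin1a*, at 1021 CPM (95% interval 961 to 1084, 1076 UMIs) in WT V3 and 1085 CPM (95% interval 1024 to 1149, 1175 UMIs) in P23H V3, while *grin1b* stood at 48.4 and 87.7 CPM. The *grin1b* level in P23H V3 was no higher than the 90.0 CPM of erythroid cells in that library. The *grin1a* share of both *grin1* copies was 95.5% (95% interval 94.1 to 96.6%) in WT V3 and 92.5% (95% interval 90.9 to 93.9%) in P23H V3.

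Retinal ganglion cells, the output neurons of the retina, carried the highest *gria2b* level of the 4 types and a mixed set of AMPA receptor genes. *gria2b* stood at 149 CPM (95% interval 129 to 172, 195 UMIs) in WT V3 and 263 CPM (95% interval 240.1 to 287, 497 UMIs) in P23H V3, against 57.4 and 79.0 CPM in amacrine cells, whose intervals of 50.4 to 65.1 and 72.4 to 86.1 CPM lie lower. *gria2a* stood at 167 and 199 CPM in ganglion cells and at 195 and 188 CPM in amacrine cells, and the intervals of both types overlapped in P23H V3 (179 to 219.8 and 178 to 199 CPM) and in WT V3 (145 to 190.3 and 182 to 209 CPM). Both *gria2* copies together made up 50.8% (95% interval 47.3 to 54.3%) of the AMPA receptor UMIs of WT V3 ganglion cells and 52.4% (95% interval 50.0 to 54.9%) in P23H V3, a larger share than in amacrine cells (34.2% and 27.0%) or horizontal cells. *gria3a* was lower in ganglion than in amacrine cells, at 128 and 199 CPM. *gria4a* reached 132 CPM (95% interval 113 to 153, 172 UMIs) and 168 CPM (95% interval 150.1 to 188, 318 UMIs), with overlapping intervals between ganglion and amacrine cells (94.7 to 114 and 148 to 167 CPM in amacrine cells). *gria4b* stood at 29.8 and 41.2 CPM.

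*grin1a* had its highest level among the 4 types in ganglion cells, 2199 CPM (95% interval 2119 to 2281, 2876 UMIs) in WT V3 and 3197 CPM (95% interval 3117 to 3279, 6050 UMIs) in P23H V3. Its order was the same in both V3 libraries, ganglion cells above amacrine cells (1801 and 2461 CPM), then horizontal and bipolar cells, and no neighbours in that order had overlapping intervals. *grin1b* followed another order, with amacrine cells highest (735 and 1254 CPM). In WT V3 bipolar cells (424 to 463 CPM) and ganglion cells (396 to 468 CPM) did not differ beyond their intervals, and in P23H V3 bipolar cells (677 to 720.3 CPM) stood above ganglion cells (561 to 631 CPM). *gria1a*, *gria1b* and *gria3b* were rare in ganglion cells, with 6, 0 and 15 UMIs in WT V3 and 3, 1 and 16 in P23H V3.

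**Figure D2:**
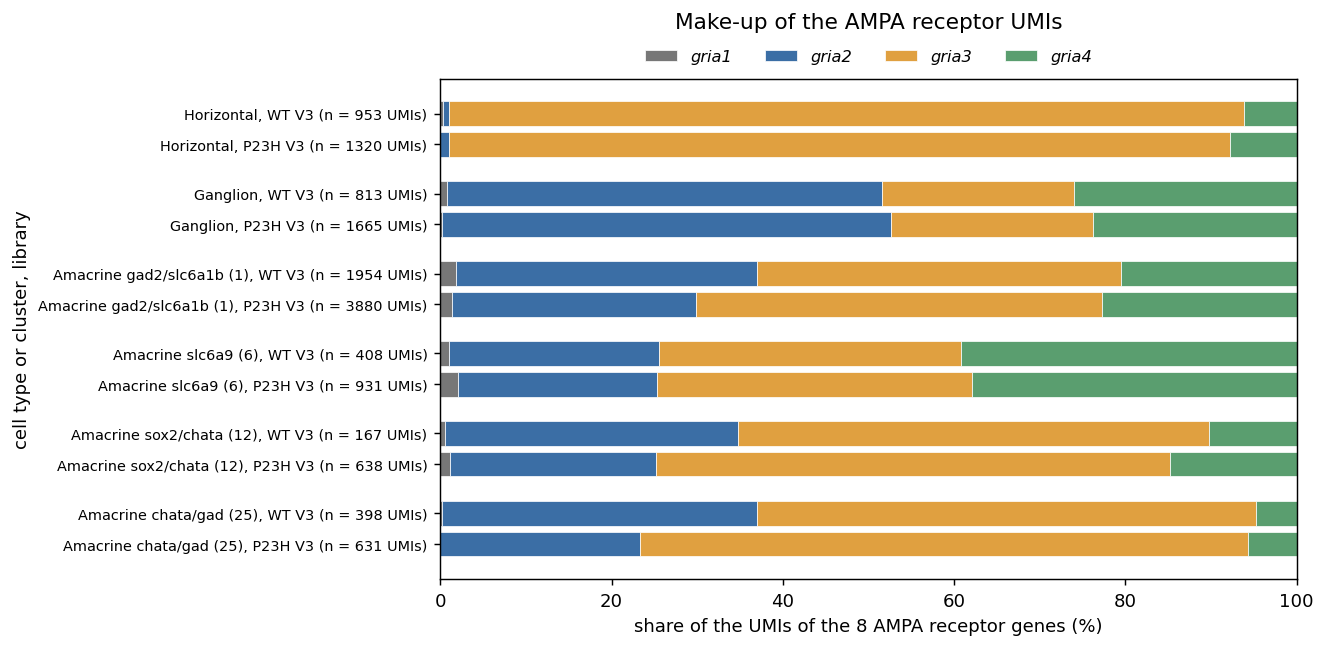
Share of each AMPA receptor subunit (copies a and b summed) in the UMIs of the 8 AMPA receptor genes, as stacked bars for horizontal cells, ganglion cells and 4 amacrine clusters in each V3 library. *gria3* fills 92.8% and 91.3% of the horizontal cell bars, *gria2* fills 50.8% and 52.4% of the ganglion cell bars, and *gria4* fills more of the bars of the *slc6a9* amacrine cluster 6 (39.2% and 37.9%) than of the other 5 columns shown.

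Amacrine cells, the interneurons of the inner retina, held UMIs of all 8 AMPA receptor genes, with *gria3a* at 319 CPM (95% interval 302 to 336, 1348 UMIs) in WT V3 and 472 CPM (95% interval 455 to 489, 3105 UMIs) in P23H V3. They fell into 7 clusters with different receptor sets. The largest, cluster 1 (1182 WT V3 and 1570 P23H V3 cells), was rich in the GABA genes *gad2* and *slc6a1b*, and cluster 6 (425 and 758 cells) in the glycine transporter gene *slc6a9*. Cluster 6 had a large *gria4* share, 39.2% (95% interval 34.4 to 44.1%) of AMPA receptor UMIs in WT V3 and 37.9% (95% interval 34.8 to 41.1%) in P23H V3, against 20.5% and 22.7% in cluster 1, 10.2% and 14.7% in cluster 12 and 42.3% in P23H V3 cells of cluster 22, described below. *gria4a* stood at 256 and 238 CPM in cluster 6 and at 105 and 177 CPM in cluster 1.

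Cluster 12 (236 and 522 cells) carried *sox2*, the acetylcholine synthesis gene *chata* and the vesicular acetylcholine transporter gene *slc18a3a*. It also carried the GABA genes *gad1b* (1015 and 1618 CPM), *slc6a1b* (1926 and 1299 CPM) and *gad2* (523 and 789 CPM). The cluster had less *gria2b* and *gria4a* than clusters 1 and 6. *gria2b* had 5 UMIs there in WT V3 and 1 in P23H V3, and *gria4a* stood at 5.53 CPM in WT V3 (2 UMIs) and 43.6 CPM in P23H V3 (33 UMIs). It also held *gria3a* (249 and 494 CPM) and *gria2a* (144 and 202 CPM), with *gria4b* at 41.5 and 80.5 CPM. Cluster 25, with *chata* and GABA genes but little *sox2*, held *gria3a* at 559.7 and 767 CPM, its highest levels among the amacrine clusters, *gria4a* at 4.83 and 17.3 CPM and *gria2b* at 24.1 and 41.6 CPM. Cluster 26, with *chata* and *slc6a9*, was the cluster with the most *gria1a*, 92.9 CPM (95% interval 44.6 to 171, 10 UMIs) in WT V3 and 70.8 CPM (95% interval 38.7 to 119, 14 UMIs) in P23H V3. *gria2a* stood at 372 and 298 CPM there, above its 195 and 188 CPM over all amacrine cells, and *gria3a* had 16 and 6 UMIs. Cluster 29, with 16 and 37 cells, held *gria2a* at 421 and 466 CPM.

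Cluster 22 (82 and 162 cells) had the highest *grin1a* level of the 7 amacrine clusters, with little of the other copy. *grin1a* stood at 7207 CPM (95% interval 6715 to 7725, 797 UMIs) in WT V3 and 7636 CPM (95% interval 7319.8 to 7961, 2200 UMIs) in P23H V3, while *grin1b* had 6 and 26 UMIs. The cluster carried the calcium-binding protein gene *calb1* (2776 and 1551 CPM) and the transcription factor gene *neurod2* (1411 and 1236 CPM) but had *gad2* at 45.2 and 41.6 CPM and *slc6a9* at 99.5 and 233 CPM, low for both transmitters. Only 3 of the 13 amacrine markers led it, the smallest number that allows the name. Its AMPA receptor genes were *gria3a* (470.2 and 444 CPM) and *gria4a* (244 and 340.1 CPM), with *gria2b* at 0 and 4 UMIs.

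**Figure D3:**
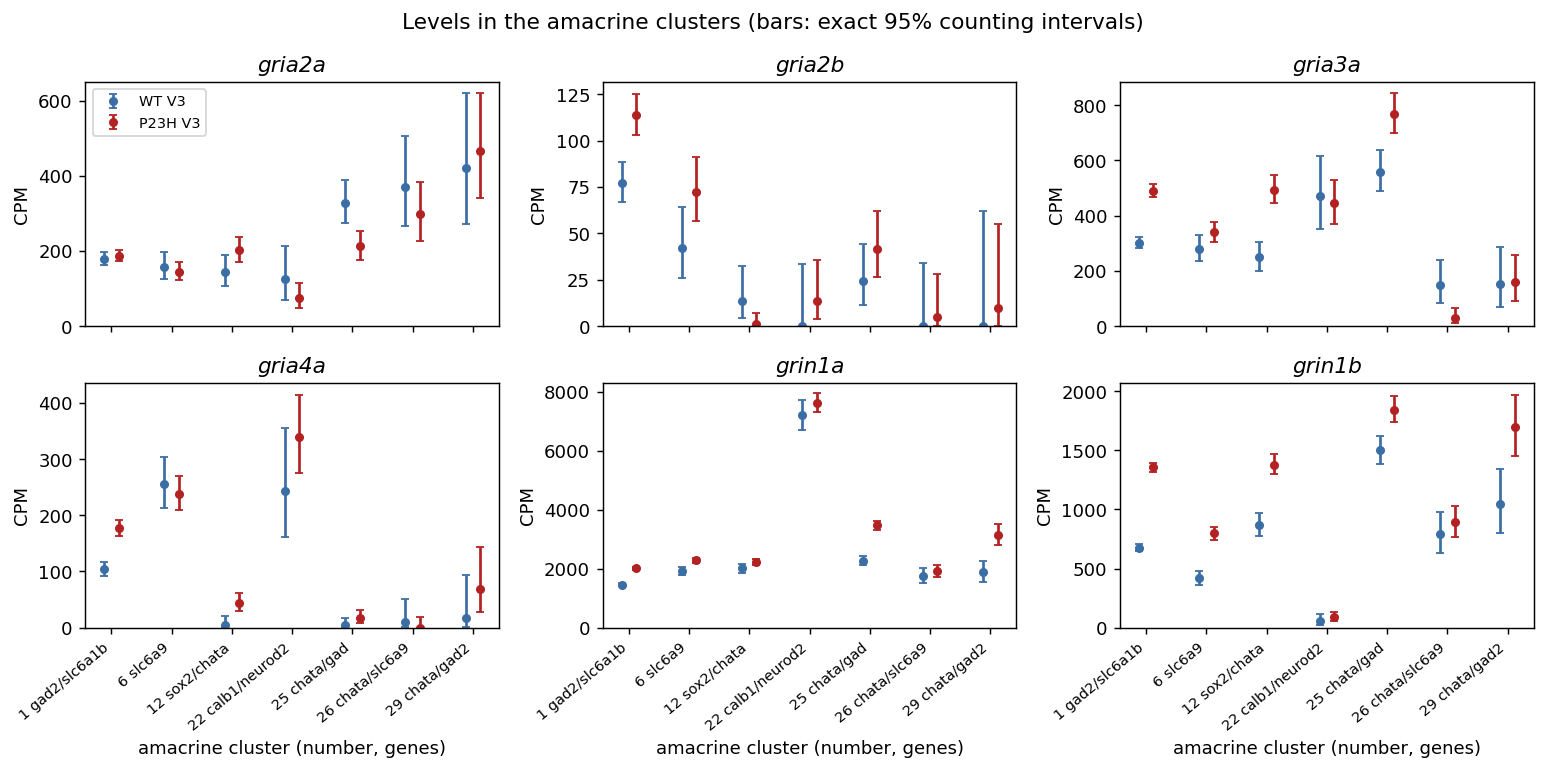
Level (CPM) of 6 of the genes in the 7 amacrine clusters, 1 panel per gene, with WT V3 in blue, P23H V3 in red and bars for exact 95% counting intervals. Cluster 22 stands apart in *grin1a* (7207 and 7636 CPM) with little *grin1b*, and *gria4a* is below its cluster 1 and cluster 6 levels in the clusters with *chata*.

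Bipolar cells, which relay photoreceptor signals to the inner retina, held a low *grin1a* share of the UMIs of both *grin1* copies and few UMIs of the AMPA receptor genes. *grin1b* stood at 443 CPM (95% interval 424 to 463, 2020 UMIs) in WT V3, 698 CPM (95% interval 677 to 720.3, 3934 UMIs) in P23H V3 and 800.1 CPM (95% interval 664 to 956, 121 UMIs) in P23H V2, while *grin1a* stood at 98.2, 103 and 245 CPM. The *grin1a* share of both copies was 18.2% (95% interval 16.6 to 19.7%) in WT V3 and 12.8% (95% interval 11.9 to 13.8%) in P23H V3, far under the 71.0% and 66.3% of amacrine cells and the 59.2% and 66.5% of erythroid cells. *grin1b* was found in all 3 bipolar clusters: it stood at 469 and 724 CPM in cluster 0, at 373 and 715 CPM in the *irx7* cluster 13, and at 136 and 245 CPM in the *prkca*-rich cluster 20. After thinning to 500 UMIs, 20.1% of WT V3 and 28.3% of P23H V3 bipolar cells had a *grin1b* UMI (33.8% and 42.7% before thinning), against 2.69% and 6.36% of erythroid cells, at median depths of 1031 and 873 UMIs per bipolar cell.

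The 8 AMPA receptor genes together stood at 49.6 CPM in WT V3 bipolar cells and 61.1 CPM in P23H V3, against 17.9 and 73.4 CPM in erythroid cells. In WT V3 the bipolar level lay above the erythroid level, with intervals of 43.3 to 56.5 and 10.8 to 28.0 CPM. In P23H V3 the bipolar value was lower, but the intervals, on 344 and 146 UMIs, overlapped. Rod opsin, a transcript bipolar cells do not make, stood at 13666 CPM in WT V3 bipolar cells and at 6884 CPM in erythroid cells. The erythroid profile was scaled to each type by its rod opsin level as an estimate of background. It amounted to 74.2% of the *gria2a* and 89.8% of the *gria3a* UMIs of WT V3 bipolar cells. For *grin1b*, *gria4b* and *gria2b* in these cells it was 13.1%, 47.4% and 0%. WT V3 erythroid cells held 1 *gria4b* and 0 *gria2b* UMIs, so the last 2 shares cannot show how much background there was. In P23H V3 bipolar cells the background estimate was larger than the counts for every member but *grin1b*. It came to 1343 UMIs of *grin1a* where 579 were counted and 192 of *gria3a* where 92 were counted. For *grin1b* it came to 17.2%.

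Outside these 4 types, Müller glia, oligodendrocytes and neurogenic progenitor cells were among the types with receptor levels above those of erythroid cells. Müller glia held *gria3a* at 66.4 and 94.0 CPM and *grin1a* at 339 and 392 CPM. After thinning to 500 UMIs, *gria3a* was seen in 1.25% and 1.73% of Müller glia, against 0.269% and 1.13% of erythroid cells. For *grin1a* these shares were 8.48% and 8.07% against 4.03% and 6.05%. The 95% intervals of the thinned shares overlapped between the 2 types for both genes in both libraries. Oligodendrocytes held *gria3a* at 199 CPM (95% interval 149 to 260, 53 UMIs) in WT V3 and 112 CPM (95% interval 75.5 to 159.7, 30 UMIs) in P23H V3. Neurogenic progenitor cells held *grin1b* at 122 and 249 CPM and *grin1a* at 112 and 209 CPM. The P23H V3 *grin1a* interval of these progenitors overlapped that of erythroid cells. Cones held *grin1a* at 46.8 and 84.1 CPM, and 108 of the 216 AMPA receptor UMIs of P23H V3 cones lay in cluster 28, which has 33 cells and *gad2* at 2551 CPM beside cone markers. Without that cluster *gria3a* in cones was 7.79 CPM in WT V3 and 8.77 CPM in P23H V3.

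The copies of a gene were used in different ratios by different types. For *gria4*, the a copy made up 81.5% (95% interval 75.6 to 86.5%) of both copies in WT V3 ganglion cells and 80.3% (95% interval 76.0 to 84.1%) in P23H V3, but 10.2% (95% interval 3.82 to 20.8%) and 4.90% (95% interval 1.61 to 11.1%) in horizontal cells. For *gria2*, this share was 52.8% (95% interval 47.8 to 57.7%) and 43.1% (95% interval 39.8 to 46.4%) in ganglion cells, 69.9% (95% interval 66.3 to 73.3%) and 62.2% (95% interval 59.3 to 65.1%) in amacrine cluster 1, and 91.2% (95% interval 80.7 to 97.1%) and 99.4% (95% interval 96.4 to 100.0%) in amacrine cluster 12. *gria3* was almost entirely *gria3a*: *gria3b* had 29 UMIs in WT V3 and 63 in P23H V3 amacrine cells, the type with the most *gria3b* UMIs. Of the *gria1* UMIs of amacrine cells, 88.2% and 84.4% were *gria1a*. The *grin1a* share reached 99.3% and 98.8% in amacrine cluster 22. Such shares do not depend on the depth of a library, but P23H V2 gave lower *grin1a* shares than either V3 library in amacrine cells (43.0%), ganglion cells (73.5% against 83.6% and 84.3%) and horizontal cells (72.2%).

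**Figure D4:**
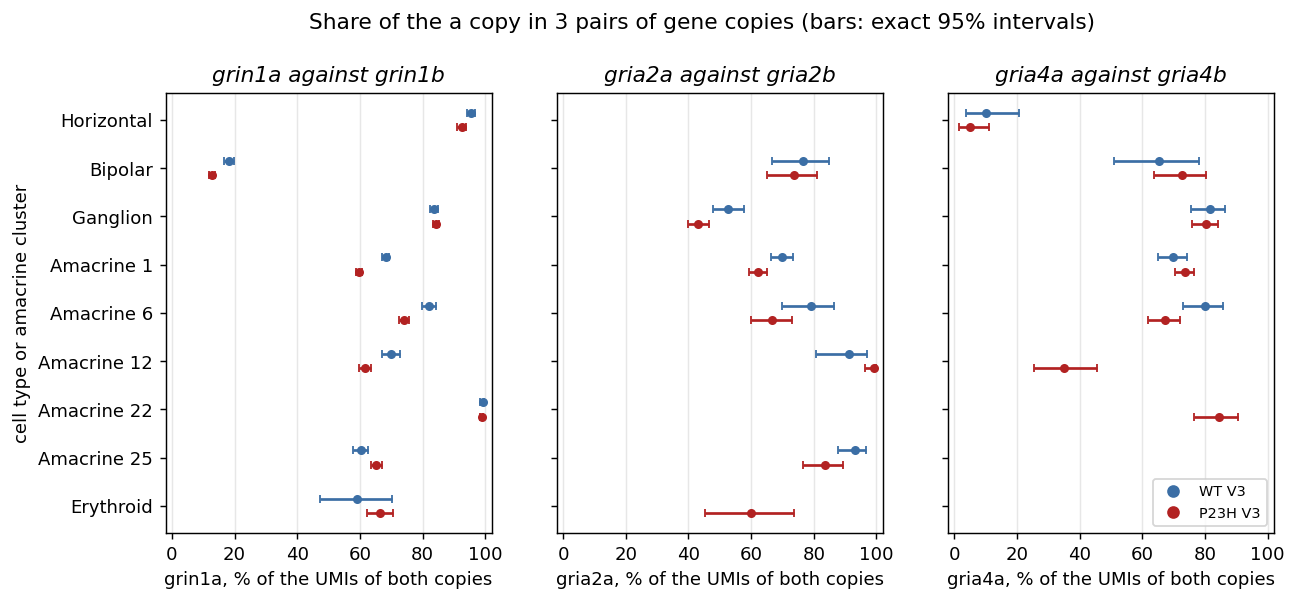
Share of the a copy in the UMIs of both copies of *grin1*, *gria2* and *gria4*, by cell type or amacrine cluster, with WT V3 in blue, P23H V3 in red and bars for exact 95% binomial intervals; pairs with under 50 UMIs are left out. Bipolar cells stand alone at the low end for *grin1* (18.2% and 12.8%), and horizontal cells at the low end for *gria4* (10.2% and 4.90%).

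The comparison of P23H V3 with WT V3 asks how receptor levels of the inner retina differ in a retina with lasting rod loss. A gene was compared in a type where both libraries together had at least 100 UMIs, and called where the ratio of CPM was at least 1.5 in either direction, with no test. In amacrine cells 8 of the 10 genes could be compared, 3 were higher and 0 lower in P23H V3, where 14.6% of all 8332 genes compared were higher and 16.4% lower. *grin1b* had a ratio of 1.71 (95% interval 1.64 to 1.78), from 735 CPM in WT V3 to 1254 CPM in P23H V3, and stood at 1284 CPM in P23H V2. *gria4b* had a ratio of 1.55 (95% interval 1.31 to 1.85), from 44.7 to 69.3 CPM and stood at 133 CPM in P23H V2. *gria4a* was just inside the threshold, with a ratio of 1.51 (95% interval 1.35 to 1.69), and *gria3a* just outside it, with 1.48 (95% interval 1.39 to 1.58). *gria2a* showed no difference beyond counting error, with 0.961 (95% interval 0.879 to 1.05). The median log2 ratio of the 8 genes was 0.51, and that of all genes compared in amacrine cells -0.01.

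Within amacrine clusters the pattern was uneven. Of all genes compared, 14.8% were higher and 15.2% lower in P23H V3 in cluster 1, 21.6% and 12.6% in cluster 6 and 22.0% and 13.7% in cluster 12. The *grin1b* ratio was 2.01 (95% interval 1.90 to 2.12) in cluster 1, 1.92 (95% interval 1.64 to 2.24) in cluster 6, 1.59 (95% interval 1.40 to 1.81) in cluster 12, 1.23 (95% interval 1.11 to 1.36) in cluster 25 and 1.13 (95% interval 0.865 to 1.48) in cluster 26. *gria3a* was higher in cluster 1, with 1.63 (95% interval 1.50 to 1.77), and in cluster 12, with 1.98 (95% interval 1.57 to 2.52), but its ratio was 1.22 (95% interval 0.996 to 1.49) in cluster 6 and 0.945 (95% interval 0.679 to 1.33) in cluster 22. *gria4a* was higher in cluster 1, with 1.69 (95% interval 1.47 to 1.95), and had 0.930 (95% interval 0.747 to 1.16) in cluster 6. Further differences with intervals that do not overlap rested on fewer than 100 UMIs and were not compared. *gria4a* went from 5.53 to 43.6 CPM in cluster 12, *gria4b* from 0 to 18 UMIs in cluster 22 and *gria3a* from 149 to 30.3 CPM in cluster 26. The GABA genes of cluster 26 differed between the libraries as well, *gad1b* at 716 and 25.3 CPM and *slc6a1b* at 316 and 5.05 CPM, and their part in the *gria3a* difference was not tested. *gria2a* was called lower in cluster 25, with 0.649 (95% interval 0.505 to 0.835), and had 1.04 (95% interval 0.928 to 1.18) in cluster 1. *grin1a* was called higher in clusters 25 and 29, with 1.52 (95% interval 1.41 to 1.65) and 1.67 (95% interval 1.34 to 2.09), and in no other amacrine cluster. Also called higher were *grin1b* in cluster 29, with 1.62 (95% interval 1.21 to 2.21), and *gria4b* in cluster 6, with 1.82 (95% interval 1.22 to 2.78). Shares of all genes called were not computed for clusters 25 and 29, where all genes compared had median log2 ratios of 0.06 and 0.08. The shares of the clusters among amacrine cells also differed between libraries, and with every cluster given equal weight the genes higher in P23H V3 amacrine cells were *gria2b* and *gria4b* and no longer *gria4a* and *grin1b*, whose log2 ratios were then 0.39 and 0.56.

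In ganglion cells 7 genes could be compared, 2 were higher and 0 lower in P23H V3, against 18.3% of all genes compared higher and 13.9% lower. *gria2b* had a ratio of 1.76 (95% interval 1.49 to 2.09), from 149 to 263 CPM, and stood at 344 CPM in P23H V2, with 45 UMIs. *gria3a* had a ratio of 1.55 (95% interval 1.29 to 1.87) and stood at 222 CPM in P23H V2. *grin1a* lay just outside the threshold, with 1.45 (95% interval 1.39 to 1.52), but stood at 1566 CPM in P23H V2, below the 2199 CPM of WT V3. *gria2a* had a ratio of 1.19 (95% interval 1.01 to 1.42), and the a share of *gria2* was 52.8% in WT V3 and 43.1% in P23H V3, with intervals that did not overlap. The median log2 ratio was 0.47 over the 7 genes and 0.06 over all genes compared in ganglion cells. Markers of other types differed in ganglion cells too: the 7 erythroid markers summed to 1576 and 5501 CPM (1 of them at 0 in each), the bipolar markers to 1515 and 2218 CPM, and the neurogenic progenitor markers to 7185 and 4743 CPM in WT V3 and P23H V3. Their part in the ganglion cell ratios was not tested.

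In horizontal cells 4 genes could be compared and 2, *gria4b* and *grin1b*, were higher in P23H V3, against 17.7% of all genes compared higher and 13.2% lower. *gria4b* had a ratio of 1.78 (95% interval 1.26 to 2.54). *grin1b* had 1.81 (95% interval 1.28 to 2.60), beside a ratio of 3.08 for the same gene in erythroid cells. Ratios under the threshold were 1.33 (95% interval 1.21 to 1.45) for *gria3a* and 1.06 (95% interval 0.977 to 1.15) for *grin1a*. In bipolar cells 5 genes could be compared and 2, *gria4a* and *grin1b*, were higher in P23H V3, against 14.8% of all genes compared higher and 19.5% lower. *grin1b* had a ratio of 1.58 (95% interval 1.49 to 1.66), and *gria4a* had 2.02 (95% interval 1.34 to 3.11) at 7.46 and 15.09 CPM, beside erythroid levels of 3.77 and 14.1 CPM. The median log2 ratios were 0.62 over the 4 genes and 0.08 over all genes in horizontal cells, and 0.16 and -0.05 in bipolar cells.

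**Figure D5:**
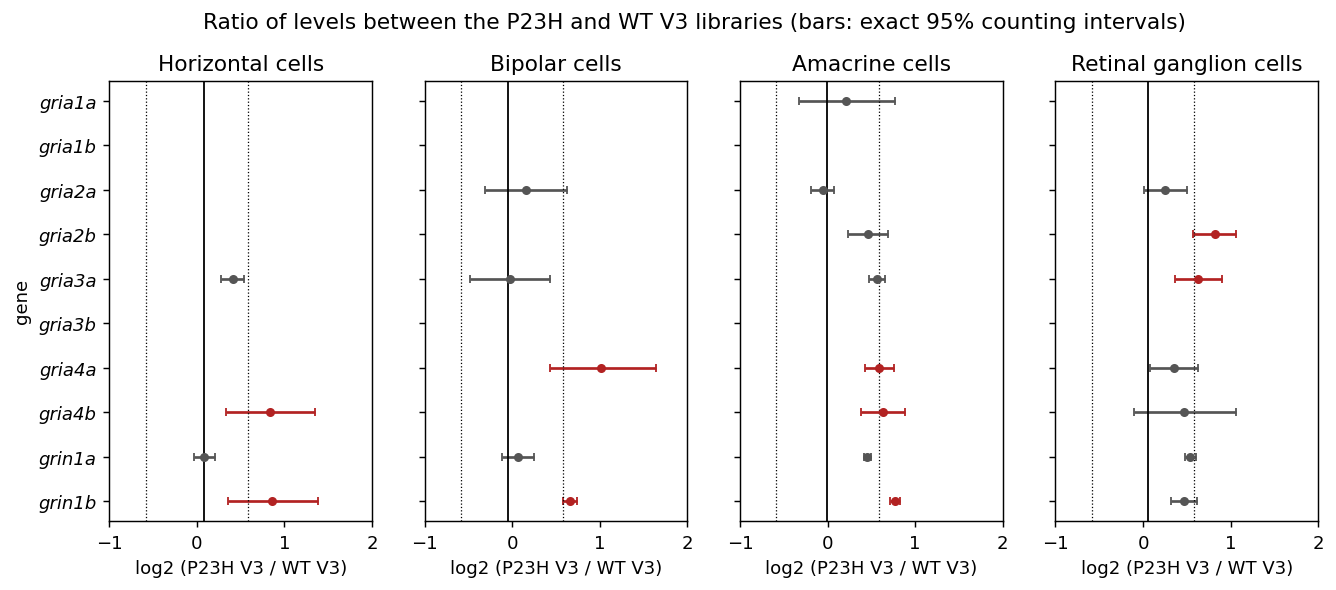
Log2 ratio of the P23H V3 to the WT V3 level for each gene compared in horizontal, bipolar, amacrine and ganglion cells, with bars for exact 95% counting intervals, red where the ratio is at least 1.5, a solid line at the median of all genes compared and dotted lines at a ratio of 1.5 in either direction. No gene is called lower in these 4 types, and *gria2a* lies at -0.06 in amacrine cells.

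The higher *grin1b* level of P23H V3 was also seen outside the inner retinal neurons. The gene was higher in 11 of the 12 types where it could be compared, and *grin1a* in 6 of 14. The type where *grin1b* was compared but not called was ganglion cells. It had 564 of 1307851 UMIs there in WT V3 and 1127 of 1892215 in P23H V3. In erythroid cells the *grin1b* ratio was 3.08 (95% interval 2.09 to 4.66), where 52.1% of all genes compared were higher, and in retinal pigment epithelium 15.12 (95% interval 11.2 to 20.2), where 35.6% were. In rods it was 2.53 (95% interval 1.82 to 3.55) (36.0% of genes higher), in newly formed rods 2.23 (95% interval 1.43 to 3.64) (28.3%) and in cones 2.73 (95% interval 2.30 to 3.25) (18.9%). Progenitors showed it as well, with ratios of 3.12 (95% interval 1.60 to 6.96) in retinal progenitor cells (24.4%) and 2.04 (95% interval 1.61 to 2.60) in neurogenic progenitor cells (11.4%). In Müller glia it was 1.56 (95% interval 1.31 to 1.85) (16.0%). Not all of these types held *grin1b* above the P23H V3 erythroid level of 90.0 CPM (179 of 1989922 UMIs). Cones of that library stood at 83.6 CPM, and retinal progenitor cells had 145 of 2778165 UMIs, a lower level than erythroid cells. *grin1a* was higher in oligodendrocytes, with 4.71 (95% interval 2.99 to 7.75) (19.3%), and had a ratio of 0.992 (95% interval 0.640 to 1.58) in T lymphocytes (21.8%). In cones *gria3a* was also called, with 2.00 (95% interval 1.41 to 2.83), but without cluster 28 its levels were the 7.79 and 8.77 CPM given above.

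The estimate of background RNA bore on several of these ratios. Beside the *grin1b* ratios of erythroid cells and pigment epithelium, that of *grin1a* was 4.22 (95% interval 3.09 to 5.89) in erythroid cells and 9.24 (95% interval 7.09 to 11.9) in retinal pigment epithelium. Scaled by rod opsin, the background made up 5.39% of *grin1b* UMIs in WT V3 amacrine cells and 7.81% in P23H V3. Its shares of *gria2b* UMIs in ganglion cells were 0% and 2.97%, the 0% resting on 0 *gria2b* UMIs in WT V3 erythroid cells. With the background subtracted, *grin1b* in amacrine cells kept a log2 ratio of 0.75 and *gria2b* in ganglion cells 0.65. Both were still past the threshold, as was *gria4b* in horizontal cells at 0.88. The remaining calls in these 4 types were lost under this subtraction: *gria4a* and *gria4b* in amacrine cells then had log2 ratios of 0.53 and 0.55, *gria3a* in ganglion cells 0.45 and *grin1b* in bipolar cells 0.50. Also lost were *gria4a* in bipolar cells, with 0 UMIs left in both libraries, and *grin1b* in horizontal cells. The latter had 0 UMIs left in P23H V3 and 16.0 in WT V3, too few to compare. For those last 2 the estimate (106 and 114 UMIs) exceeded the 85 and 95 UMIs counted in P23H V3, so their loss cannot be read from it. The kept *gria4b* call of horizontal cells rests on the same estimate as the lost *grin1b* call there. For *grin1b* in bipolar cells the estimate took 17.2% of P23H V3 UMIs and 13.1% in WT V3. It exceeded the P23H V3 counts of every other member in bipolar cells. For *gria4a* and *gria4b* in amacrine cells the estimate took 9.75% and 9.47% of P23H V3 UMIs but 4.91% and 2.86% in WT V3. For *gria3a* in ganglion cells it took 10.0% and 6.93%. The totals used for CPM were also those left after subtraction, so a ratio can move in either direction. For *gria4b* in horizontal cells the estimate took 7.86% in P23H V3 and 2.13% in WT V3, yet its log2 ratio went from 0.83 to 0.88. How far unequal shares and changed totals each moved the ratios was not tested. Whether the estimate was too large there was not tested either. The summed level of the 9 bipolar markers in amacrine cells was 2439 CPM in WT V3 and 4838 CPM in P23H V3, with 1 and 0 of them at 0, and the Müller glia markers summed to 2074 and 3208 CPM. Their part in the amacrine ratios was not tested. The 10 rod markers went the other way, from 12941 to 2339.8 CPM.

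P23H V2 came from the same line with another chemistry, and genotype and chemistry cannot be told apart in its comparison with WT V3. In ganglion cells the ratios to WT V3 were 2.31 (95% interval 1.63 to 3.20) for *gria2b* and 1.72 (95% interval 1.12 to 2.57) for *gria3a*, where 22.6% of all genes compared were higher and 32.3% lower. In amacrine cells they were 2.97 (95% interval 2.18 to 4.01) for *gria4b*, 1.75 (95% interval 1.59 to 1.91) for *grin1b* and 1.63 (95% interval 1.14 to 2.28) for *gria2b*, where 24.1% were higher, and in bipolar cells 1.81 (95% interval 1.49 to 2.17) for *grin1b* and 2.49 (95% interval 1.73 to 3.49) for *grin1a*, where 28.2% were higher and 31.1% lower. Müller glia markers were far higher in the P23H V2 types. Their sum was 19114 CPM in amacrine cells against 2074 in WT V3 and 7961 against 768 in bipolar cells. In ganglion cells it was 5874 against 729 CPM and in horizontal cells 4197 against 293 CPM. Amacrine markers summed to 1659.7 CPM in P23H V2 bipolar cells against 354 in WT V3. These bipolar cells were 486, with a median of 281 UMIs. Their marker *cabp5a* stood at 3438 CPM against 32926 in WT V3. The markers *cabp2a* and *rs1a* stood at 3941 and 7948 CPM against 3713 and 6926. The part of these differences in the ratios was not tested. Among the 4 main types *grin1a* stood lower in P23H V2 than in WT V3 in 3. Its ratio to WT V3 was 0.538 (95% interval 0.486 to 0.593) in amacrine cells, where 33.1% of all genes compared were lower. It was 0.458 (95% interval 0.345 to 0.598) in horizontal cells (30.1% higher and 30.4% lower). In ganglion cells it was 0.712 (95% interval 0.615 to 0.821), short of the threshold. P23H V3 had 1.37, 1.06 and 1.45 in these 3 types. Over all 8 types where *grin1a* could be compared with P23H V2, it was called lower in 3 and higher in 2. The 3 were amacrine cells, horizontal cells and Müller glia. Both comparisons share the WT V3 library, so that P23H V2 is no independent repeat of the first.

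Genes that work with these subunits were followed in 5 lists, to be read beside the percentages of all genes given above. The part of background RNA in the levels and ratios of these listed genes was not tested. Of the GluN2 and GluN3 subunit genes, which complete the NMDA receptor, 8 of 11 listed were in the tables, and none reached 100 UMIs in bipolar or horizontal cells. *grin2aa* stood at 68.1 and 116 CPM in ganglion cells (log2 ratio 0.77, 95% interval 0.40 to 1.14), and its copy *grin2ab* went the other way, 141 against 88.8 CPM, log2 ratio -0.66. P23H V2 had 7 and 13 UMIs of them, 53.5 and 99.3 CPM. In amacrine cells *grin2aa* stood at 71.8 and 83.7 CPM, and 0 of 3 genes compared were higher or lower. It had 14 and 34 UMIs in bipolar cells and 32 and 15 in horizontal cells. Of the kainate and delta receptor genes compared in amacrine cells, the kainate subunit gene *grik1a* was higher in P23H V3 (30.0 against 45.3 CPM, log2 ratio 0.59) and *grid1b* lower (17.7 against 10.8 CPM, log2 ratio -0.72), out of 4 compared.

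The AMPA receptor auxiliary subunits, which steer trafficking and gating, gave 2 higher and 1 lower of 11 in amacrine cells, 2 and 0 of 6 in ganglion cells, 2 and 1 of 6 in bipolar cells and 1 and 0 of 5 in horizontal cells. In amacrine cells *cacng7b*, of the transmembrane AMPA receptor regulatory proteins, was higher in P23H V3 (138 against 216 CPM, log2 ratio 0.65), as was *shisa7b* (114 against 229 CPM, log2 ratio 1.00), and *shisa9b* was lower (17.5 against 8.66 CPM, log2 ratio -1.01). In ganglion cells both copies of the stargazin gene were higher, *cacng2a* (48.2 against 102 CPM, log2 ratio 1.08) and *cacng2b* (40.5 against 72.9 CPM, log2 ratio 0.85). In horizontal cells *cacng5a* was higher (138 against 248 CPM, log2 ratio 0.85), and in bipolar cells it was lower (17.3 against 6.03 CPM, log2 ratio -1.52) while *cacng2a* (12.7 against 31.9 CPM, log2 ratio 1.33) and *shisa7b* (7.67 against 18.5 CPM, log2 ratio 1.27) were higher.

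Of the postsynaptic scaffold and trafficking genes, 5 of 18 were higher and 1 lower in amacrine cells, and 5 of 12 higher and 0 lower in ganglion cells. Their median log2 ratios were 0.20 and 0.44, against -0.01 and 0.06 over all genes. The scaffold gene *homer1b* was higher in amacrine cells (19.1 against 41.5 CPM, log2 ratio 1.12) and ganglion cells (47.4 against 76.6 CPM, log2 ratio 0.69), as were *shank1* (39.2 against 59.9 CPM, log2 ratio 0.61, and 41.3 against 66.6 CPM, log2 ratio 0.69) and *shank2* (57.0 against 86.5 CPM, log2 ratio 0.60, and 45.1 against 116 CPM, log2 ratio 1.37). *syngap1b*, whose product damps Ras signalling at excitatory synapses, was higher in both (74.7 against 131 CPM, log2 ratio 0.81, and 23.7 against 62.4 CPM, log2 ratio 1.40). *dlg1* was higher in amacrine cells (90.3 against 136 CPM, log2 ratio 0.60) and *grip1*, which binds GluA2 and GluA3 in mammals, in ganglion cells (112 against 188 CPM, log2 ratio 0.75). The 1 gene lower in amacrine cells, *dlgap1b* (16.1 against 10.6 CPM, log2 ratio -0.60), and the 1 gene higher in bipolar cells, *dlgap1a* (9.87 against 14.9 CPM, log2 ratio 0.60), had overlapping intervals. This list gave 1 higher of 11 in bipolar cells and 0 of 7 in horizontal cells. Of the 4 RNA editing enzyme genes, *adarb1a*, a copy of the gene for the enzyme that edits GluA2 transcripts in mammals, was higher in P23H V3 in bipolar cells (31.1 against 60.9 CPM, log2 ratio 0.97), horizontal cells (173 against 301 CPM, log2 ratio 0.80) and ganglion cells (19.1 against 42.3 CPM, log2 ratio 1.15). Its copy *adarb1b* was lower in horizontal cells (68.4 against 42.5 CPM, log2 ratio -0.69), with overlapping intervals, and 0 of the 4 were called in amacrine cells.

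The genes whose levels ran most like each member were sought over 52 points, the clusters of each V3 library with at least 50 cells, as Pearson correlations of log2(CPM + 10) over 8776 genes with at least 500 UMIs in all. The points share libraries and many broad cell classes, so the values are a description. *gria2a* ran closest to *rbfox1*, a neuronal splicing regulator gene (r = 0.96), and *grin1a* to the synaptic vesicle gene *sv2a* (0.94). *gria3a* ran closest to the adaptor gene *shc3* (0.91) and *gria4b* to the auxiliary subunit gene *cacng7b* (0.86). *grin1b* ran closest to *pclob*, a copy of the gene for the presynaptic scaffold piccolo (0.90), *gria2b* to *map7d2b* (0.87) and *gria4a* to *si:dkey-52k1.6* (0.89). The rarer genes rest on few UMIs, *gria3b* on 146 (*zgc:92912*, 0.87), *gria1a* on 167 (*tmem266*, 0.73) and *gria1b* on 36 (*acvr1l*, 0.62).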

How the data were processed

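Gene by cell count matrices for 3 libraries, deposited by the authors as filtered 10X output, were analysed. Per the submitters' processing notes, the counts (UMIs, unnormalised) were made with Cell Ranger 3.1.2.0 on GRCz11. How the aligner treated reads shared between gene copies is not given in the sources used here. Rows were summed from 47048 to 30579 gene symbols. Cells with 200 to 6000 genes (WT) or 200 to 4700 genes (P23H) and at most 10% mitochondrial UMIs were kept, following the study.

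The V3 libraries were clustered together with Seurat 5.3.0 (20 principal components, resolution 0.8) and P23H V2 alone, and clusters were named from fixed marker lists, so names may differ from those of the study. A doublet caller marked 0 cells in every library and thus did not work, and no cells were removed by it. UMIs were summed per type and library and divided by the type's total (CPM). Ratios between libraries carry exact conditional intervals, levels exact Poisson intervals and shares exact binomial (Clopper-Pearson) intervals, all at 95%. With 1 library per group no p-value was computed, and a gene with at least 100 UMIs in both libraries together was called at a ratio of 1.5. A UMI count of 0 was read as at most 3 UMIs.

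All 10 genes are named in the text. Of the other lists, genes past the threshold with intervals that do not overlap and *grin2aa* are named, and for each member the best-correlated gene. A few genes past the threshold with overlapping intervals were named after their values were seen. The members and lists were chosen with earlier results of these data known. Scripts were tested on simulated data with known fold changes. Alternatives tried were the genes used to cluster, resolutions of 0.4 and 1.2, filters on cells, scaling (edgeR 4.0.16 TMM), background subtraction, unsummed copies, equal cluster weights, P23H V2 and other thresholds.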

Additional observations from a re-analysis of the deposited data

Results flagged for a closer look

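Cluster 5, with 1171 cells of WT V3 and 41 of P23H V3, received no name and entered no comparison. Its profile correlated at 0.94 with that of all other cells, over the limit of 0.9 for a name. Its WT V3 cells held receptor genes above the level in erythroid cells of the same library. In it *grin1a* stood at 434 CPM and *grin1b* at 379.6 CPM, against 42.4 and 29.2 CPM in erythroid cells. Of the AMPA receptor genes, *gria3a* stood at 97.2, *gria2a* at 44.0, *gria4a* at 38.6, *gria2b* at 22.6 and *gria4b* at 13.3 CPM. The erythroid levels of these genes were 7.54, 5.66, 3.77, 0 and 0.943 CPM. The unnamed WT V3 cells, 1182 in all and nearly all of this cluster, were shallow, with a median of 592 UMIs against 1208 in erythroid cells, and held rod opsin at 30394 against 6884 CPM. The bipolar marker *cabp5a* stood at 6597 CPM in cluster 5. The cluster also held *gad2* at 236 CPM and *slc6a9* at 178 CPM. Its AMPA receptor UMIs in WT V3 were 30.5% *gria2*, 45.1% *gria3* and 23.8% *gria4*. Over all kept WT V3 cells these shares were 30.9%, 48.8% and 18.9%. How much of the cluster's receptor UMIs came from free RNA or mixed cells was not tested.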

How the results depend on the processing

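No paired analysis was possible because each group is 1 library, and no library could be left out for the same reason. Over all alternatives, 139 of 420 levels, 34 of 449 shares, 31 of 297 log2 ratios and 25 of 120 counts of called genes moved by more than their counting interval or, for counts, by more than 1.5 times. Ratios were followed only where a gene still had enough UMIs to be compared, and no called ratio among those changed sign. *grin1b* in horizontal cells dropped out with background subtracted, with 0 UMIs left in P23H V3 and 16.0 in WT V3. The causes were not tested. In ganglion cells 1 member in place of 2 was higher in P23H V3 with receptor genes kept for clustering, at resolution 1.2, with totals that leave out the 20 most abundant genes and with background subtracted. Of all genes compared there, 18.1%, 18.1%, 16.4% and 18.2% were higher in these settings. In bipolar cells the count of 2, of 5 members compared, became 1 of 4 with at least 500 genes per cell (about 15% of all genes higher). With background subtracted only 1 member could still be compared there, and it was not called (18.6% of all genes higher). With clusters weighted equally 1 bipolar member, *gria2a*, was lower (about 22% of all genes lower). In horizontal cells the count of 2 became 1 with the 8% of cells of highest doublet score removed (18.6% of all genes higher) and 1 with background subtracted (20.4%). In amacrine cells the count of 3 became 1 with background subtracted (16.6%). With P23H V2 in place of P23H V3, 0 members were higher and 1 lower in horizontal cells (30.1% and 30.4% of all genes). In amacrine cells 1 was lower (33.1%). At a ratio of 2, 1 member was higher in bipolar cells and 0 in horizontal, amacrine and ganglion cells. Of the other listed genes 2, 0, 2 and 4 were higher in bipolar, horizontal, amacrine and ganglion cells. In these types 5.86%, 7.18%, 5.53% and 7.11% of all genes compared were higher at this ratio. Of the other listed genes 0, 1 and 0 were lower in horizontal, amacrine and ganglion cells, where 5.63%, 6.79% and 5.85% of all genes were. TMM scaling left 0 of the other listed genes lower in ganglion cells (11.7% of all genes lower). Counts of the other listed genes were followed only under TMM scaling and at a ratio of 2. They were not followed with background subtracted or under the remaining alternatives. The *grin1a* share of horizontal cells became 97.0% in WT V3 and 94.5% in P23H V3 without the high doublet scores, 98.5% and 100.0% with background subtracted, and 72.2% in P23H V2. In bipolar cells it became 3.52% and 0% with background subtracted and 23.4% in P23H V2. The *gria3* share of horizontal cells in P23H became 92.9% with background subtracted and 83.2% in P23H V2. In P23H V3 bipolar cells the background estimate exceeded the *grin1a* UMIs counted (1343 against 579), and in horizontal cells the *grin1b* UMIs (114 against 95), so the shares after subtraction rest on an estimate larger than the counts. Depth kept *gria1b* and *gria3b* from comparison in every type and *gria1a* in all but amacrine cells.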
